A study of Mus musculus with 6 samples.

Results

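The genes described here are 10 genes of pyroptosis and necroptosis (Gsdmd, Casp1, Casp4, Casp8, Nlrp6, Il18, Ripk1, Ripk3, Mlkl and Zbp1). They were chosen by name for what they are known to do, with earlier results of these data known. All 10 were among the 28752 genes listed, and all 10 were among the 18348 genes with enough reads to be tested. They were measured by RNA sequencing in 6 samples of intestinal crypt stem cells, 3 carrying the vector and 3 overexpressing circEZH2_005, a circular RNA, from an adenovirus. The cells were Lgr5+ intestinal stem cells from Lgr5-GFP mice of genotype WT, in which a green fluorescent protein marks the dividing cells at the crypt base. By the labels and the study's methods, these cells were sorted for that protein and grown as organoids. The labels put infection 72 h before hypoxia/reoxygenation (H/R), give 4 h in 2% O2 as the hypoxia, and list H/R as the treatment of all 6 samples. The vector samples therefore also went through H/R, and cells without H/R were not analysed here.

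Pyroptosis and necroptosis are inflammatory forms of cell death that end in rupture of the plasma membrane. In pyroptosis, sensors such as NLRP6 assemble inflammasomes that activate caspase-1, while the mouse caspase encoded by Casp4 binds bacterial lipopolysaccharide directly. Both caspases cleave gasdermin D, whose freed fragment forms membrane pores, and caspase-1 also matures the cytokine IL-18. In necroptosis, RIPK1 or the nucleic acid sensor ZBP1 engages RIPK3, which phosphorylates the pore-forming protein MLKL. Caspase-8 cleaves RIPK1 and RIPK3 and so restrains necroptosis. In the intestine these genes are known for epithelial defence against microbes and for crypt loss when the restraint fails.

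Il18 fell with circEZH2_005, and it was the 1 gene of the 10 to pass the test. Zbp1, Gsdmd, Mlkl, Casp4 and Casp8 had higher mean levels with circEZH2_005, and in none of the 5 did the groups overlap, but none passed the adjusted threshold. Nlrp6, Casp1, Ripk1 and Ripk3 had 95% intervals of the fold change that included no difference. Counts were compared with edgeR's quasi-likelihood test, and a gene was called at a Benjamini-Hochberg adjusted p under 0.05 over all genes tested. By this rule 0 of 10 genes were higher and 1 was lower, where 2.69% of all genes tested were called higher and 0.986% lower. At an unadjusted p under 0.05 there were 5 higher and 1 lower, against 14.0% and 9.72% of all genes. The groups did not overlap for 6 genes higher and 1 lower, against 16.4% and 14.2% of all genes. With a fold change over 2 or under 0.5 and a p under 0.05, Zbp1 was higher and Il18 lower, against 6.22% and 1.34% of all genes. The median log2 fold change of the 10 genes was 0.35, beside 0.00 for all genes tested. DESeq2 called 5 of the 10 higher and 1 lower, against 1588 higher and 701 lower of 16459 genes tested. Both limma fits on the deposited FPKM values called 0 of the 10 higher and 1 lower. Their calls over 13278 genes were 310 higher and 292 lower with log2(FPKM + 1), and 168 and 121 with log2(FPKM + 0.1).

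**Figure D1:**
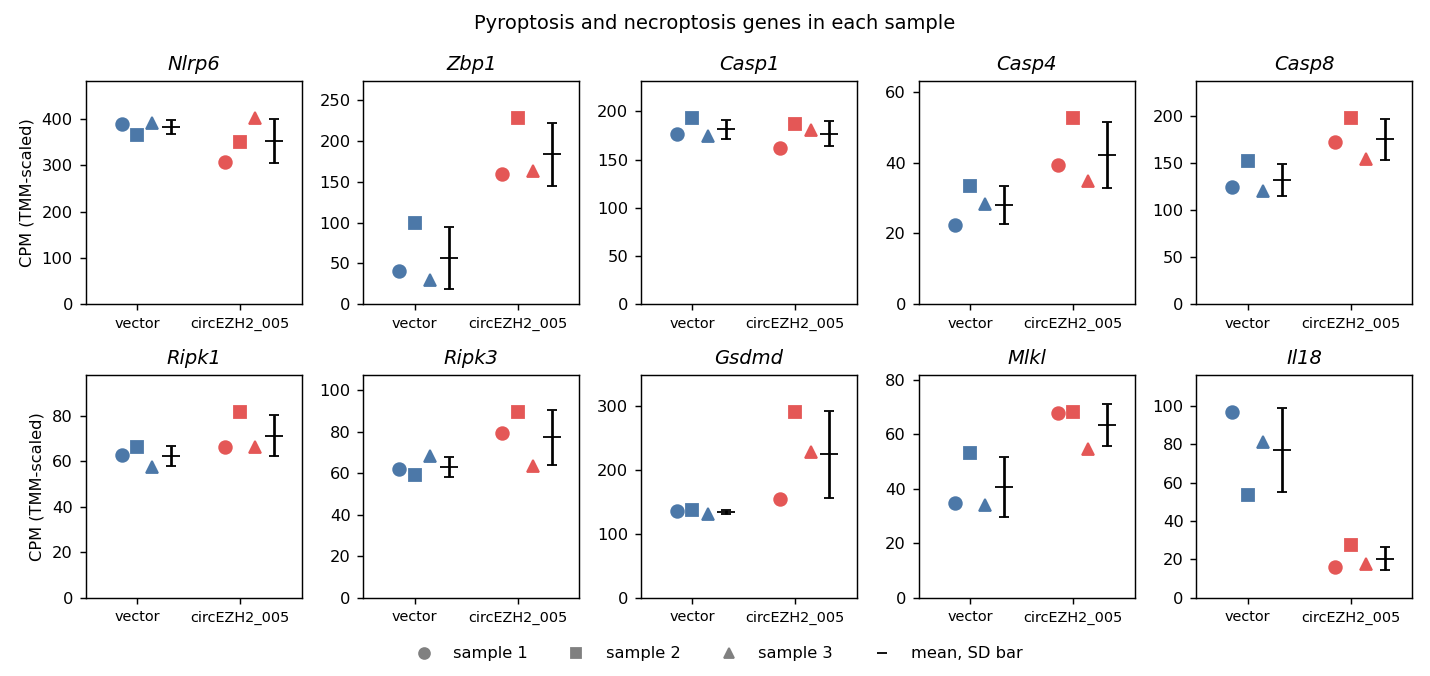
Level of each of the 10 genes in each sample, in CPM (reads scaled for depth with TMM factors), on a linear axis from 0, with vector samples in blue, circEZH2_005 samples in red, and the mean with an SD bar in black (n = 3). The circEZH2_005 samples lie below all vector samples for Il18 and above all of them for Zbp1, Gsdmd, Mlkl, Casp4 and Casp8, and vector sample 2 is the closest vector sample to the circEZH2_005 samples for Zbp1, Mlkl and Il18.

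Depth was between 71506487 and 79919893 counts per sample, so that 3 counts corresponded to 0.0377 to 0.0419 CPM and the spread between samples, more than counting error, set the precision for these genes. The labels do not say whether samples of a group came from separate animals or cultures, so p-values measure the spread between these samples, which may be technical. All 8 epithelial markers examined were detected, with a summed level of 7771 to 8182 CPM in vector samples and 9367 to 11688 CPM in circEZH2_005 samples (1 of 8 called higher). The 6 crypt stem cell markers summed to 2009 to 2848 CPM and 1355 to 1984 CPM, with Lgr5 and Smoc2 called lower. Of 6 fits that each left out 1 sample, 1 kept the call of Lgr5 (adjusted p up to 0.166 by edgeR) and 2 that of Smoc2 (up to 0.103), and Axin2 had a log2 fold change of 0.31 (not called). RNA of T and NK cell markers was also present, although a sort for Lgr5-GFP and culture as organoids would remove such cells, and whether every library held only organoid cells cannot be told from the files. The 10 markers, among them Cd3e, Cd8a, Gzma and Gzmb, summed to 134, 533 and 157 CPM with the vector (samples 1 to 3) and to 1512, 1149 and 825 CPM with circEZH2_005. None of these 10 markers was at 0 in any sample, and for 10 of 10 the groups did not overlap, against 16.4% of all genes in this direction. By edgeR, 0 were called in the full comparison and 10 were higher at an unadjusted p under 0.05, against 14.0% of all genes. Without vector sample 2, which held the most of this RNA in its group, 10 were called, against 1098 higher of 19145 genes tested. The 6 pan-leukocyte markers did not overlap either (81.3 to 237 CPM and 296 to 534 CPM in sum), and the 8 B and plasma cell markers summed to 95.2 to 106 CPM and 116 to 161 CPM. Most of the B and plasma cell sum was Sdc1, also known from epithelium, at 83.5 to 95.9 and 92.4 to 110 CPM, while Jchain had means of 7.33 and 27.8 CPM and Cd79b of 1.39 and 3.74 CPM, both without overlap and not called. The summed level of 10 macrophage and other myeloid markers overlapped between the groups, with 1 of the 10, C1qa, not overlapping (41.9 to 52.9 CPM and 49.2 to 72.5 CPM, with Fcgr1 at 0 in at least 1 sample). The fibroblast and endothelial markers were low in both groups (5.19 to 8.98 CPM and 4.94 to 15.9 CPM in sum, with Cdh5 and Kdr at 0 in at least 1 sample and 1 of 6 tested called, Pecam1). In bulk RNA, fewer cells of a type and less RNA per cell cannot be told apart. The part of these cell types in the results that follow was not tested. Vector sample 2 stood nearer to the circEZH2_005 samples (Pearson r of log2 CPM 0.965 to 0.971 across genes, which are not independent replicates) than vector samples 1 and 3 did (0.951 to 0.964). Several results below are given with and without vector sample 2.

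Il18 (ENSMUSG00000039217, chromosome 9, 50554827 to 50581840, plus strand, GRCm38) encodes the cytokine that inflammasome activation releases. Vector samples 1 to 3 held 7002, 4001 and 6335 reads of it, and circEZH2_005 samples 1 to 3 held 1299, 2041 and 1258. The highest circEZH2_005 sample thus held fewer reads than the lowest vector sample. In CPM the means were 77.1 ± 21.8 (SD, n = 3) and 20.4 ± 6.08 (SD, n = 3), a 3.77-fold lower level with circEZH2_005. On the log2 scale it changed by -1.91 (standard error, SE, 0.27, 95% interval -2.53 to -1.30, edgeR adjusted p = 0.0204). The two-sided exact permutation p was 0.1, the smallest that 3 against 3 samples allow. The estimate stayed between -2.19 and -1.72 when any 1 sample was left out. The call was lost without vector sample 1 (edgeR adjusted p = 0.0844), without vector sample 3 (0.102) and without circEZH2_005 sample 3 (0.0599), and without vector sample 2 the adjusted p was 0.00403. Il18 overlaps Bco2 and Tex12 on the other strand, and whether reads were counted by strand is not given. Bco2 stood at -0.43 on the same log2 scale (edgeR adjusted p = 0.136) and Tex12 at -0.23 (0.666).

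Il18bp, the secreted protein that binds IL-18 and keeps it from its receptor, moved in the other direction. The vector samples held 728, 1367 and 829 reads of it and the circEZH2_005 samples 3094, 5183 and 2519, without overlap. The mean rose from 13.0 ± 4.61 to 47.9 ± 18.9 CPM (SD, n = 3), which is 1.88 on the log2 scale (SE 0.33, edgeR adjusted p = 0.0314). Of 14 alternative settings, 8 kept this call. Leaving out vector sample 1 or vector sample 3 gave edgeR adjusted p-values of 0.128 and 0.138, and leaving out vector sample 2 gave 0.00801. Leaving out circEZH2_005 sample 2 gave an adjusted p of 0.0916, and leaving out circEZH2_005 sample 3 gave 0.0528. It was 0.067 without a filter on low counts and 0.0577 with limma on log2(FPKM + 0.1). Il18bp overlaps Numa1 on the other strand, which stood at 0.14 on the log2 scale (edgeR adjusted p = 0.435). The ratio of Il18 to Il18bp, in FPKM (read fragments scaled for transcript length and depth, so that genes of different length can be compared), was chosen after the values were seen. This ratio was 28.2, 8.59 and 22.5 with the vector and 1.23, 1.15 and 1.46 with circEZH2_005 (two-sided exact permutation p = 0.1, n = 3 per group). The vector samples thus held several times more Il18 than Il18bp RNA per length, and the circEZH2_005 samples held nearly equal levels. Il1b, the other classic caspase-1 substrate, was at a low level in both groups, with 31 to 95 counts per sample, means of 0.747 and 0.755 CPM and a log2 fold change of 0.02 (95% interval -1.11 to 1.14).

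Zbp1 (ENSMUSG00000027514, chromosome 2, 173206612 to 173218923, minus strand) encodes a sensor of left-handed nucleic acids that starts necroptosis through RIPK3 and is known to be induced by interferon. It had the largest positive log2 fold change of the 10 genes. Its level was 40.8, 99.2 and 29.3 CPM with the vector (samples 1 to 3) and 160, 228 and 163 CPM with circEZH2_005. Vector sample 2 was more than double the other vector samples, and still below every circEZH2_005 sample. The mean was 56.4 ± 37.5 CPM with the vector and 184 ± 38.1 CPM with circEZH2_005 (SD, n = 3), a 3.26-fold difference (95% interval 1.64 to 6.45) with an edgeR adjusted p of 0.0667. Without vector sample 2 the log2 fold change went from 1.70 to 2.39 and the adjusted p to 0.00338. Over all samples left out in turn the log2 fold change ranged from 1.39 to 2.39 and the adjusted p from 0.00338 to 0.198. The order of the vector samples in Zbp1 was not that of their T and NK cell markers for samples 1 and 3, but vector sample 2 was highest in both, and no vector sample reached a circEZH2_005 sample in either.

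Mlkl and Gsdmd encode the proteins that open the membrane, in necroptosis and pyroptosis respectively. Mlkl (ENSMUSG00000012519, chromosome 8, 111311797 to 111338177, minus strand) was at 34.8, 53.2 and 34.0 CPM with the vector and at 67.6, 68.1 and 54.6 CPM with circEZH2_005. The gap between vector sample 2 and circEZH2_005 sample 3 was narrow. The log2 fold change was 0.64 (SE 0.18, 95% interval 0.21 to 1.07, edgeR adjusted p = 0.0899), and without vector sample 2 it was 0.88 with an adjusted p of 0.00764. With each sample left out in turn it ranged from 0.52 to 0.88, and the edgeR adjusted p from 0.00764 to 0.263. Gsdmd (ENSMUSG00000022575, chromosome 15, 75862327 to 75867408, plus strand) showed another pattern. Its vector samples were nearly equal at 136, 137 and 131 CPM, while the circEZH2_005 samples were at 154, 291 and 229 CPM. Sample 1 of circEZH2_005 thus lay close to the vector samples, and the spread with circEZH2_005 (SD 68.7) was far wider than with the vector (SD 3.15). The log2 fold change was 0.74 (SE 0.21, 95% interval 0.26 to 1.21, edgeR adjusted p = 0.0844). Leaving out circEZH2_005 sample 1 brought it to 0.94 with an adjusted p of 0.0144, while leaving out vector sample 2 left it at 0.75 (adjusted p = 0.123). Without circEZH2_005 sample 2 it was 0.50 (adjusted p = 0.205), and over all samples left out the edgeR adjusted p reached 0.241. The circEZH2_005 sample with the least Gsdmd, sample 1, was the one with the most T and NK cell marker RNA.

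**Figure D2:**
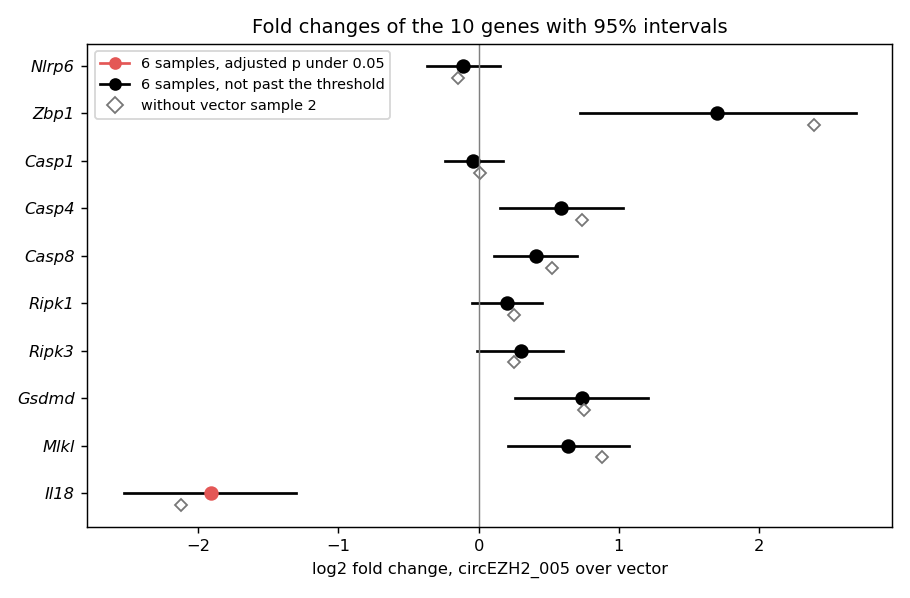
Log2 fold change of the 10 genes, circEZH2_005 over vector, from edgeR with all 6 samples (filled points, bars for the 95% interval, red where the adjusted p is under 0.05) and without vector sample 2 (open diamonds). The interval of Il18 lies between -2.53 and -1.30, those of Zbp1, Gsdmd, Mlkl, Casp4 and Casp8 lie above 0, and leaving out vector sample 2 moved Zbp1 from 1.70 to 2.39 and Mlkl from 0.64 to 0.88.

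Among the caspases, the levels of Casp4 and Casp8 were higher on average and that of Casp1 was not. Casp4 (ENSMUSG00000033538, chromosome 9, 5308828 to 5336783, plus strand) was at 22.4, 33.4 and 28.3 CPM with the vector and at 39.3, 52.6 and 34.8 CPM with circEZH2_005. Vector sample 2 and circEZH2_005 sample 3 were separated by less than the SD of either group (5.47 and 9.25 CPM). The log2 fold change was 0.59 (95% interval 0.15 to 1.03, edgeR adjusted p = 0.116), and 0.74 without vector sample 2 (adjusted p = 0.0724). Casp8 (ENSMUSG00000026029, chromosome 1, 58795374 to 58847503, plus strand) was at 125, 152 and 120 CPM with the vector and at 173, 198 and 155 CPM with circEZH2_005, again with vector sample 2 next to circEZH2_005 sample 3. Its log2 fold change was 0.41 (95% interval 0.11 to 0.70, edgeR adjusted p = 0.106), and 0.52 without vector sample 2 (adjusted p = 0.0514). Over all samples left out it ranged from 0.31 to 0.52, with an edgeR adjusted p up to 0.307. Casp1 (ENSMUSG00000025888, chromosome 9, 5298508 to 5307290, plus strand), which lies next to Casp4, was at 177, 193 and 175 CPM and at 162, 187 and 181 CPM. These ranges overlapped, and the log2 fold change of -0.04 had a 95% interval of -0.24 to 0.17. Casp8 and Cflar, the caspase-8-like inhibitor, kept a similar ratio in FPKM, of 7.86 ± 0.592 with the vector and 8.25 ± 0.844 with circEZH2_005 (SD, n = 3, two-sided exact permutation p = 0.6).

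Nlrp6 (ENSMUSG00000038745, chromosome 7, 140920902 to 140929192, plus strand), an inflammasome sensor of the gut epithelium, was at 390, 365 and 392 CPM with the vector and at 307, 351 and 402 CPM with circEZH2_005. The circEZH2_005 samples covered the whole range of the vector samples. Its log2 fold change was -0.11 (95% interval -0.37 to 0.15, edgeR adjusted p = 0.599).

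Ripk3 (ENSMUSG00000022221, chromosome 14, 55784995 to 55788865, minus strand), the kinase that activates MLKL, was at 62.2, 59.0 and 68.2 CPM and at 79.5, 89.6 and 63.4 CPM. Here circEZH2_005 sample 3 lay within the vector range, and the log2 fold change was 0.30 (95% interval -0.01 to 0.60, edgeR adjusted p = 0.226). Ripk1 (ENSMUSG00000021408, chromosome 13, 34002363 to 34033677, plus strand), a kinase that passes on either survival or death signals, was at 63.0, 66.1 and 57.4 CPM and at 66.2, 81.7 and 66.2 CPM. The groups were separated only at the third digit, and in FPKM they overlapped. Its log2 fold change was 0.20 (95% interval -0.05 to 0.45, edgeR adjusted p = 0.317). Ripk1 overlaps Serpinb6a on the other strand, which stood at 0.52 on the same scale (edgeR adjusted p = 0.0524), and 6.67% of the 100-base windows of its transcripts also occur in another gene. That share was 0.717% for Casp8 and 0 for the other 8 genes.

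Because ZBP1 and MLKL are known as interferon-induced, the promoters of the 10 genes were searched on both strands for the core letters of the interferon-stimulated response element (ISRE, GAAANNGAAA) and of the gamma-activated site (GAS, TTCNNNGAA). RefSeq promoters (GRCm38.p6, 250 bases before to 50 bases after the start) were matched for 8 of the 10 genes, all but Gsdmd and Zbp1. Of 27025 genes with a promoter, 3.99% held the ISRE letters and 9.55% the GAS letters. Among the 8 genes, Ripk1 held both, and its matches are shown because they are the only ones found. They lie at the second of its annotated starts, on the plus strand, with the matched letters in capitals, and the ISRE match overlaps the second GAS match.
Ripk1 ISRE, chr13:34002861-34002886, starting 5 bases before the start site: cgttcccgGAAATCGAAAagcgcgga
Ripk1 GAS, chr13:34002758-34002782, starting 108 bases before it: aagctggtTTCCCGGAAggggcgga
Ripk1 GAS, chr13:34002855-34002879, starting 11 bases before it: ttcaaacgTTCCCGGAAatcgaaaa
A match describes letters, not a bound site. Neither set of letters was found in these windows of Mlkl, Casp1, Casp4, Casp8, Nlrp6, Ripk3 or Il18.

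Compared per length in the vector samples, Nlrp6 (mean 69.6 FPKM), Il18 (68.9), Casp1 (53.5) and Gsdmd (52.5) were the most abundant, and the range of each overlapped that of the next in this order. Casp8 followed at 42.3 FPKM, Ripk3 at 25.5 and Mlkl at 16.3, each without overlap with the one before. Zbp1 (14.8), Casp4 (6.99) and Ripk1 (6.89) were lowest, and each overlapped its neighbour. With circEZH2_005, Gsdmd was at 81.3 ± 20.9 FPKM, Nlrp6 at 60.4 ± 5.90, Casp8 at 52.8 ± 6.32, Casp1 at 49.0 ± 0.756 and Zbp1 at 45.1 ± 7.68 (SD, n = 3). Il18 stood at 17.1 ± 4.37 FPKM there, below Ripk3 (29.5 ± 5.21) and Mlkl (24.0 ± 3.65). Il18 thus passed from among the most abundant of the 10 to among the 3 least abundant.

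The other genes of the pathways were taken from a list of 65, of which 64 were listed and 62 tested, with Gsdma3 not analysed here. Of these, 8 were called higher and 0 lower. At an unadjusted p under 0.05 by edgeR, 25 were higher and 4 lower, against 14.0% and 9.72% of all genes. DESeq2 called 17 higher and 1 lower of 57 tested, against 1588 and 701 of 16459 genes. The list was chosen with earlier results of these data known. Its share of higher edgeR calls, beside 2.69% of all genes, therefore describes the list and is not a test. The median log2 fold change of the 62 genes was 0.17, beside 0.00 for all genes tested. Of the 62 values 42 were above 0, beside 9174 of 18348 over all genes tested. Among the calls were gasdermins (4, paralogs that share sequence), an inflammasome sensor, the inhibitor Il18bp and a death ligand.

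**Figure D3:**
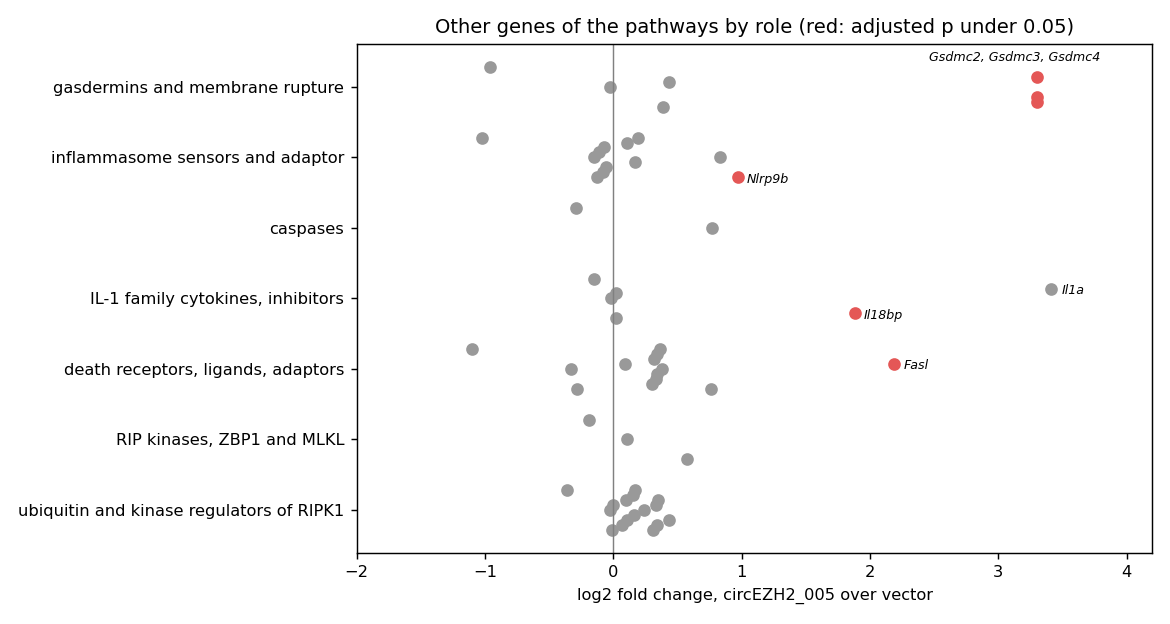
Log2 fold changes (circEZH2_005 over vector, edgeR) of other pathway genes, 1 point per gene, grouped by role, with genes at an adjusted p under 0.05 in red. Gsdmc2, Gsdmc3 and Gsdmc4 stand at 3.30, far from the other gasdermins. Gsdmc, at 0 in all vector samples, is not drawn because its fold change has only a lower bound, and Il1a (3.41, not called) had 0, 0 and 6 counts in vector samples.

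The largest differences among the called genes were in the gasdermin C genes, which encode relatives of gasdermin D found in gut epithelium. Gsdmc4 rose from 7.82 ± 3.21 to 77.3 ± 12.1 CPM, Gsdmc2 from 5.06 ± 1.66 to 49.8 ± 11.2 and Gsdmc3 from 2.31 ± 0.437 to 22.8 ± 5.91 (SD, n = 3). Each had a log2 fold change of 3.30, with standard errors of 0.32, 0.28 and 0.24 and edgeR adjusted p-values of 0.00678, 0.00449 and 0.00249. These 3 were called under all 14 alternative settings. Gsdmc had 0 counts in every vector sample and 89, 58 and 46 counts with circEZH2_005, at least 21.2-fold higher when the vector is set at 3 counts per library (edgeR adjusted p = 0.0185, with the call kept in 7 of 11 alternatives that gave a value). It was lost without vector sample 1 (adjusted p = 0.0615), vector sample 3 (0.0689) or circEZH2_005 sample 2 (0.0785). Reads can be split among these paralogs, since 28.6% of the 100-base windows of Gsdmc2, 28.4% of Gsdmc3, 20.2% of Gsdmc4 and 7.03% of Gsdmc occur in another gene. Whether any of the few Gsdmc reads came from its relatives was not tested. Summed over the family, which avoids that split, the counts were 669, 1341 and 1440 with the vector and 14394, 10923 and 8926 with circEZH2_005. The family mean went from 15.2 ± 5.16 to 151 ± 28.4 CPM (SD, n = 3), a ratio of 9.92. Per length, Gsdmd was above the most abundant of them, Gsdmc4, in both groups (52.5 and 81.3 FPKM for Gsdmd, 3.47 and 32.5 FPKM for Gsdmc4). Gsdme, another pore-forming gasdermin, had a log2 fold change of 0.43 (95% interval -0.02 to 0.87), and Ninj1, which ruptures the membrane after the pores open, of -0.03 (-0.36 to 0.30).

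Among the 15 inflammasome sensors and the adaptor listed, 13 were tested. At an unadjusted p under 0.05 by edgeR, 2 of the 13 were higher and 0 lower, against 14.0% and 9.72% of all genes. Nlrp9b alone was called, where 2.69% of all genes were called higher. This sensor, known from intestinal epithelium, had 1374, 1137 and 1644 counts with the vector and 2456, 3033 and 2589 with circEZH2_005. On the log2 scale the change was 0.97 (SE 0.15, edgeR adjusted p = 0.0248, called in 8 of 14 alternatives), and 2.11% of its windows occur in its relatives. The call was lost without vector sample 1 (adjusted p = 0.111), vector sample 3 (0.0943), circEZH2_005 sample 2 (0.096) or circEZH2_005 sample 3 (0.0661), and without a filter on low counts (0.0535). The adaptor Pycard, which links sensors to caspase-1, had a log2 fold change of -0.15 (adjusted p = 0.436), and the flagellin-pathway sensor Nlrc4 of -0.07 (0.813). Nlrp3, the sensor best known from macrophages, had 15, 11 and 16 counts with the vector and 13, 6 and 19 with circEZH2_005, so a change in it was not detectable at this depth (log2 fold change -0.13, 95% interval -1.63 to 1.36). Aim2, a sensor of cytosolic DNA, had 362, 426 and 573 counts and 1186, 776 and 482 counts, which overlap (log2 fold change 0.83, edgeR adjusted p = 0.141).

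Upstream of RIPK1, Fasl was the called gene among 13 death receptors, ligands and adaptors, where 2.69% of all genes were called higher. At an unadjusted p under 0.05 by edgeR, 7 of the 13 were higher and 1 lower, against 14.0% and 9.72% of all genes. Fasl encodes the ligand of the Fas receptor and is known chiefly from cytotoxic T and NK cells. It had 58, 169 and 90 counts with the vector and 555, 514 and 385 with circEZH2_005, a change of 2.19 on the log2 scale (SE 0.38, edgeR adjusted p = 0.0313, called in 8 of 14 alternatives). Among vector samples it was highest in sample 2, as were the summed T and NK cell markers, whose part in this result was not tested. The call was lost without vector sample 1 (adjusted p = 0.106), vector sample 3 (0.138) or any 1 of the circEZH2_005 samples (0.0516 to 0.119), and without a filter on low counts (0.0642). Without vector sample 2 the edgeR adjusted p was 0.00349. Tnf, the ligand of the classic necroptosis route, was at 5.17 ± 1.64 and 2.41 ± 0.502 CPM (SD, n = 3), without overlap, at -1.10 on the log2 scale (edgeR adjusted p = 0.0674). Its receptor Tnfrsf1a had 0.38 (adjusted p = 0.132), the adaptor Fadd 0.09 (0.658) and Cflar 0.34 (0.0700).

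Of the 16 genes that act on RIPK1 or its complex through ubiquitin or phosphorylation, 0 were called in either direction by edgeR. At an unadjusted p under 0.05, 6 were higher and 1 lower, against 14.0% and 9.72% of all genes. The median log2 fold change of the 16 was 0.15. Tnfaip3, which encodes the ubiquitin-editing enzyme A20, had a log2 fold change of -0.36 (95% interval -0.69 to -0.02, edgeR adjusted p = 0.185), and Birc3, a ubiquitin ligase of the complex, of 0.07 (-0.22 to 0.36). In the core necroptosis group of 7 genes (Ripk1, Ripk3, Mlkl, Zbp1 and 3 partners), 0 were called with all samples by edgeR. At an unadjusted p under 0.05, 3 of the 7 were higher and 0 lower, beside the same shares of all genes. Without vector sample 2, where calls over all genes also rose to 1098 higher of 19145 tested, 3 of the 7 were called higher. These were Mlkl, Zbp1 and Adar, whose enzyme edits the double-stranded RNA that ZBP1 can sense. Vector sample 2 was the highest vector sample in all 3, so leaving it out widens the difference. Without vector sample 1 the edgeR adjusted p was 0.196 for Zbp1 and 0.257 for Mlkl, and without vector sample 3 it was 0.182 and 0.263.

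**Figure D4:**
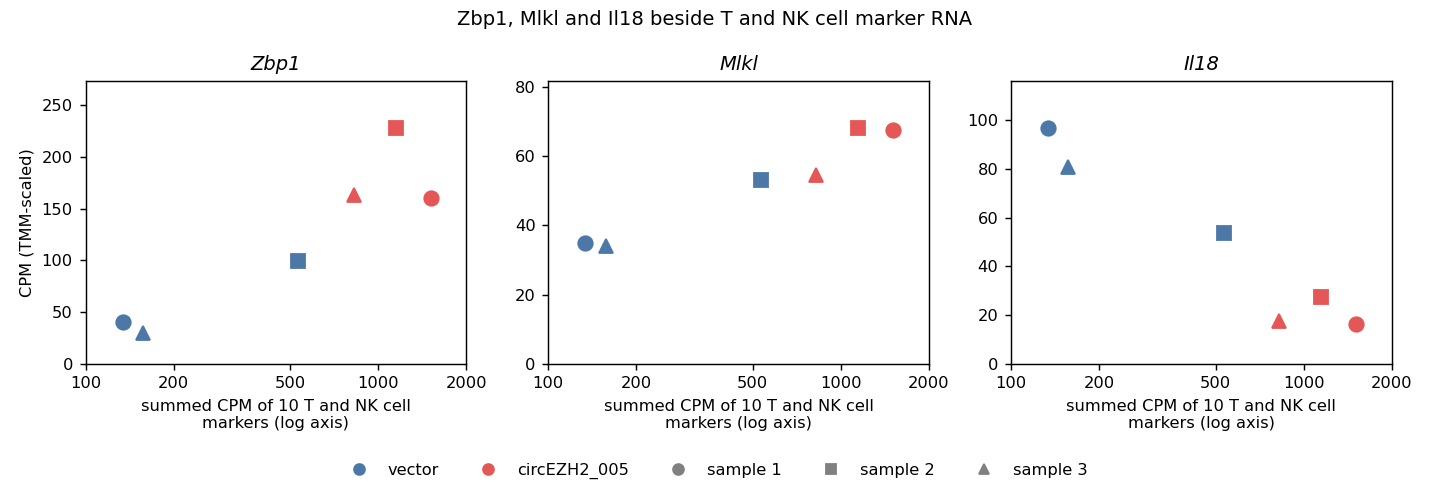
Level of Zbp1, Mlkl and Il18 (CPM, linear axis from 0) against the summed CPM of 10 T and NK cell markers (log axis), 1 point per sample, vector in blue and circEZH2_005 in red. Vector sample 2, at 533 CPM of marker RNA against 134 and 157 CPM in the other vector samples, has the highest Zbp1 and Mlkl and the lowest Il18 of its group.

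In all 3 of these genes vector sample 2 was the one nearest the circEZH2_005 samples. It held 53.6 CPM of Il18, where vector samples 1 and 3 held 96.7 and 80.9 CPM, and it was the highest vector sample in Zbp1, Mlkl, Casp4 and Casp8. Within the circEZH2_005 group the order differed. Sample 1 had the most T and NK cell marker RNA, and sample 3 had the least Casp4, Casp8, Ripk3, Mlkl and marker RNA. Sample 2 had the most Zbp1, Gsdmd, Casp1, Casp4, Casp8, Ripk1, Ripk3 and Il18. Mlkl was nearly equal in samples 1 and 2 (67.6 and 68.1 CPM).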

How the data were processed

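RNA sequencing of 6 mouse samples (3 vector, 3 circEZH2_005) was analysed from the table that the authors deposited. For each gene the authors deposited a count of reads and an FPKM value per sample, with 0 other sample columns left unused. Columns named as negative control were matched to the vector group, the only control. The submitters' processing notes name cutadapt 1.9, HISAT2 2.0.4, StringTie 1.3.4d, DESeq2 and the build mm10, without role or order. Libraries were made with oligo(dT) selection, so circEZH2_005 itself was not analysed here. The annotation and the strand of counting are not given in the sources used here.

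Counts were filtered with filterByExpr (18348 of 28752 genes kept), scaled with TMM and compared between the groups by edgeR's quasi-likelihood method (edgeR 4.0.16, R 4.3.3), with Benjamini-Hochberg adjustment over all genes tested. Each standard error was taken as log2 fold change over the root of its F statistic. CPM values use TMM-scaled library sizes, and levels of different genes were compared in FPKM. The alternatives were no filter, a mean of at least 1 CPM, median-of-ratios factors, library totals without TMM, DESeq2 1.42.0, limma 3.58.1 on log2(FPKM + 1) and log2(FPKM + 0.1) for genes averaging 0.5 FPKM or more, a block by replicate number, and each sample left out in turn. Shared sequence was counted as 100-base windows of GENCODE M21 transcripts (GRCm38). The members and all gene and marker lists were chosen with earlier results of these data known. Named were the 10 members, every other pathway gene called, 15 pathway genes regardless of result, the interferon regulators called, and the 3 genes most like Gsdmd and Mlkl; the results of some genes under this rule are not reported here. Ratios between genes were chosen after the values were seen. Exact permutation tests were two-sided.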

Additional observations from a re-analysis of the deposited data

How the results depend on the processing

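With 3 samples per group, no exact permutation test could go below 0.1, and which sample was left out mattered more than the scaling. Of 140 values of the 10 genes under 14 alternatives, 125 kept their direction and side of the threshold, 9 passed it in addition, 4 no longer passed it and 2 changed sign; over all named genes the numbers were 390, 15, 46 and 15 of 466. Among the 10 genes, the number called higher was 0 in the comparison as reported, 5 with DESeq2 (Gsdmd, Casp4, Casp8, Mlkl and Zbp1), 1 with the block by replicate number (Zbp1) and 0 to 2 when 1 sample was left out. The number called lower (Il18) was 1, and 0 with the block and 0 to 1 with 1 sample left out. For the other pathway genes, 8 were higher as reported, 4 without a filter, 17 with DESeq2 and 3 to 10 with 1 sample left out, where the lowest came without vector sample 1, vector sample 3 or circEZH2_005 sample 2 and the highest without vector sample 2. Lower calls there numbered 0, and 1 with DESeq2. Over all genes, 493 were higher and 181 lower as reported. The higher and lower counts were 132 and 37 without a filter, 1588 and 701 with DESeq2, 310 and 292 with limma on log2(FPKM + 1), and 241 and 36 with the block. Higher calls numbered 168 with limma on log2(FPKM + 0.1), and lower calls 287 at a mean of at least 1 CPM. With 1 sample left out they ranged from 26 to 1098 higher and from 2 to 334 lower. The share of calls that were higher was 73.1% as reported, 51.5% and 58.1% with limma and 87% with the block. By fold change and p, 1142 genes were higher as reported, and 347 and 628 with the 2 limma fits.

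Replicate numbers did not pair the samples: the correlations of the deviations of same-numbered samples were -0.14, -0.02 and 0.04. With the replicate block, Il18 stood at -1.92 on the log2 scale (edgeR adjusted p = 0.0533) and Zbp1 at 1.88 (0.0322), and the calls of Nlrp9b (0.0591) and Gsdmc (0.0588) were lost. Signs turned for values near 0 (log2 fold changes; ranges are over the samples left out). These were Casp1 without vector sample 2 (0.01) or circEZH2_005 sample 1 (0.02; range -0.08 to 0.02), Nlrp3 without circEZH2_005 sample 2 (range -0.60 to 0.20), Nlrc4 without vector sample 3 (0.02) or circEZH2_005 sample 1 (0.03; range -0.18 to 0.03), Ninj1 without vector sample 2 (0.05) or circEZH2_005 sample 1 (0.03; range -0.09 to 0.05), Birc3 with both limma fits and without vector sample 2 or circEZH2_005 sample 2 (-0.02 each; range -0.02 to 0.17), and Il1b with library totals (-0.02), the block (-0.04), and without vector sample 1 (-0.26) or circEZH2_005 sample 1 (-0.48; range -0.48 to 0.25). The cause was not tested for any of these changes.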

Other observations

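Interferon receptors, their kinases and the transcription factors below them were examined beside the interferon-induced Zbp1 and Mlkl. Of 16 genes tested, Irf8 and Irf1 were called higher and 0 lower, where 2.69% and 0.986% of all genes were. By edgeR at an unadjusted p under 0.05, 9 were higher and 2 lower, against 14.0% and 9.72% of all genes, and the median log2 fold change was 0.35. The 2 lower were Ifngr1 (log2 fold change -0.27, edgeR adjusted p = 0.194) and Irf3 (-0.20, 0.173). Irf8 rose from 142 ± 30.2 to 295 ± 46.1 CPM (SD, n = 3), which is 1.06 on the log2 scale (edgeR adjusted p = 0.0286, called in 8 of 14 alternatives). Irf1, a factor known to drive cell death genes downstream of interferon gamma, rose from 203 ± 66.6 to 434 ± 65.9 CPM (log2 fold change 1.10, edgeR adjusted p = 0.0472, called in 6 of 14 alternatives). Both calls were lost when vector sample 1 or 3 or circEZH2_005 sample 2 or 3 was left out, and that of Irf1 also without circEZH2_005 sample 1. Both were also lost without a filter on low counts (adjusted p = 0.0591 and 0.0937 by edgeR). Without vector sample 2, the number called higher went from 2 to 6 of 16, among them Irf1, Irf7, Irf8 and Irf9, while over all genes it went from 493 of 18348 to 1098 of 19145, and Zbp1 and Mlkl were also called. Vector sample 2 was the highest vector sample in Irf1, Irf7, Irf8, Irf9, Zbp1 and Mlkl, so leaving it out widens the difference.

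Gsdmd and Mlkl had unlike patterns over the 6 samples. The genes most similar to each in log2 CPM were picked by that correlation, so their sharing its pattern follows from the choice. The genes compared were the 13229 with a mean of at least 1 CPM outside the gene and marker lists examined here. For Gsdmd the most similar were Cyp3a13 (Pearson r = 0.9985 over n = 6 samples), Slc15a1 (0.9979) and Gm8909 (0.9958). Cyp3a13 is a cytochrome P450 gene and Slc15a1 the peptide transporter of absorptive enterocytes. Slc15a1 was at 103, 101 and 89.3 CPM with the vector and at 115, 299 and 205 CPM with circEZH2_005, with the same low circEZH2_005 sample 1 as Gsdmd. For Mlkl they were 9930111J21Rik1 (0.9986), Shisa5 (0.9968) and Gbp9 (0.9968), the last a guanylate-binding protein gene of a family known to be induced by interferon. Gbp9 was at 4.64, 14.9 and 3.77 CPM with the vector and at 32.6, 36.7 and 19.4 CPM with circEZH2_005, with the same high vector sample 2 as Mlkl. These are descriptions of 6 points that share libraries and a difference between groups, and 805 genes had an r above 0.9 with Gsdmd and 936 with Mlkl.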
